A study of Homo sapiens with 8 samples.

Results

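THP-1 cells that never received 4-thiouridine (4sU) were set against THP-1 cells at the end of a 12 h pulse with it, by the total number of reads per gene, labelled or not. The comparison uses 4 of the 8 libraries of the series: 1 library without 4sU, and 3 libraries harvested 0, 20 and 40 min after the pulse ended. Of 15380 genes with a read, 8944 had a mean of at least 50 reads over the 4 libraries and were compared. THP-1 is a human acute monocytic leukaemia line that carries a KMT2A-MLLT3 fusion. The pulsed cells had 30 uM 4sU for 12 h with fresh medium every 3 h, then 2 cold PBS washes and a chase in medium with 3 mM uridine. The labels call the remaining library a control without 4-thiouridine and do not say whether its cells had the same medium exchanges, washes or uridine. The presence of 4sU and the handling of the culture therefore cannot be told apart, nor can either be told apart from chance differences between 1 culture and the rest. The other 4 libraries, at 1, 2, 8 and 12 h of chase, served as side values.

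4sU is a uridine analogue that living cells take up, phosphorylate through the pyrimidine salvage pathway and build into new RNA. In SLAM-seq, iodoacetamide alkylates the incorporated 4sU, and reverse transcription then reads those positions as T-to-C changes, so that reads from RNA made during the pulse can be counted apart from older RNA. A library without 4sU measures the background of such changes, and its total reads show the unlabelled cells' own transcript levels. THP-1 cells model the monocyte lineage: they make granule proteases and S100 proteins, and they can answer microbial or interferon signals with cytokine and antiviral genes.

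The library without 4sU held 2916043 gene reads and the 3 end-of-pulse libraries 8710649, 8815108 and 9542643. Labelled reads made up 0.0121% of the reads without 4sU and 30.1% to 30.7% after the pulse, as the labels require. Levels are given as RPM, a gene's reads scaled to a library total of 1000000 gene reads. RPM is a share of the library and was not scaled to the 5% spike-in, so a change in total RNA per cell would not show in it. The summed level of the myeloid granule and surface genes was 7890 RPM without 4sU and 13370 to 13680 after the pulse. Markers of lymphoid, erythroid and epithelial cells summed to 30.2 RPM without 4sU and 98.1 to 110 after the pulse, of which CD4, a gene that monocytes also use, made up 12.35 and 80.5 to 88.0. Among the 28 of these markers with counts, 5 were at 0 in all 4 libraries and 17 had 3 or fewer reads in each. The B-cell gene MS4A1 had 5 reads without 4sU and 0 in each of the 3 others, and PAX5 had 16 against 12, 10 and 13. The part of such small counts in the results below was not tested.

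The library without 4sU stood apart from every library that had been pulsed. Between it and the 0 h library, 3207 of 8944 genes (35.9%) differed by at least 2-fold, whereas the 0 h library differed by that much from the 20 min library in 10 genes (0.112%) and from the 40 min library in 25 (0.28%). The distance persisted through the chase, with 3109 genes against the 2 h library, 2783 against 8 h and 2593 against 12 h. Across genes, the Pearson correlation of log2 levels was 0.797 to 0.799 between the library without 4sU and the 3 end-of-pulse libraries, and 0.991 to 0.994 among those 3. These correlations are descriptions over 8944 genes of the same libraries and carry no test.

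**Figure D1:**
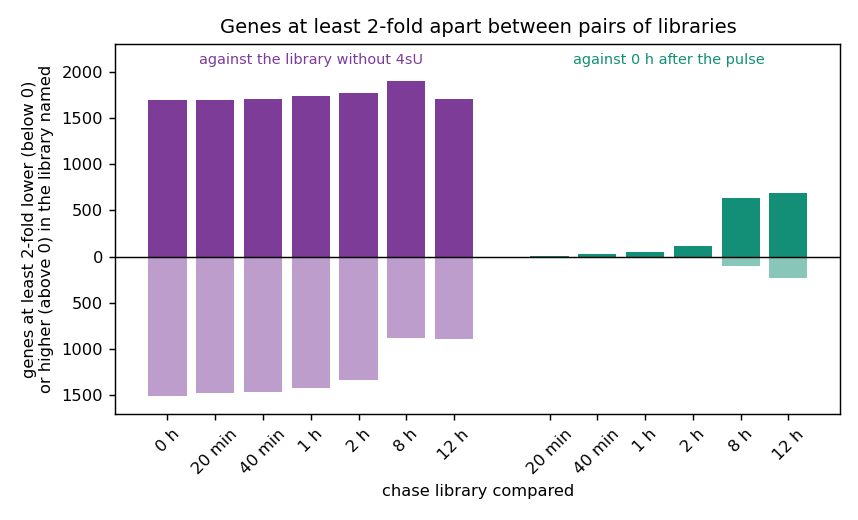
Number of genes at least 2-fold higher (above 0) or lower (below 0, lighter) in each chase library named on the x axis, against the library without 4sU (purple) and against the 0 h library (green), over the 8944 genes compared. Each bar compares 1 library with 1 other. The purple bars reach 1697 higher and 1510 lower at 0 h, while the 20 min and 40 min libraries differ from 0 h in 10 and 25 genes.

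A gene was called shifted when all 3 end-of-pulse libraries differed from the library without 4sU by at least 2-fold in the same direction. By that rule 1527 genes (17.1%) were higher after the pulse and 1268 (14.2%) were lower, together 31.2% of the genes compared. All 3 ratios had the same sign in 8303 genes (92.8%). With the unlabelled reads of the pulse libraries scaled to their own total in place of all reads, the split was 1159 higher and 2054 lower. As a description whose direction the rule fixes, the genes called higher took 7.32% of the reads without 4sU and 23.8% to 24.0% after the pulse, and those called lower took 22.6% and 7.63% to 7.67%. Differences of at least 4-fold were seen in 417 genes upwards and 171 downwards. At least 8-fold they numbered 113 and 15, and at least 16-fold 45 and 0. The median absolute log2 ratio over all genes was 0.71, beside a median SD of 0.083 over the 3 libraries. Near the threshold, GORAB entered the higher group with log2 ratios of 1.00, 1.51 and 1.57, while TRMT13, just under 2-fold in the 40 min library, stayed outside it.

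Each condition had 1 library, so no test between the conditions with replicates on both sides was possible. The edgeR quasi-likelihood test, which takes the spread of the 3 libraries (3 times within 40 min) and assumes that the lone library varies as they do, called 3280 genes higher (36.7%) and 3156 lower (35.3%) at a Benjamini-Hochberg adjusted p under 0.05, together 72% of genes. Its p-values measure the difference against that small spread only, and the labels do not say whether the 3 came from separate cultures. DESeq2 called 2760 and 2841.

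**Figure D2:**
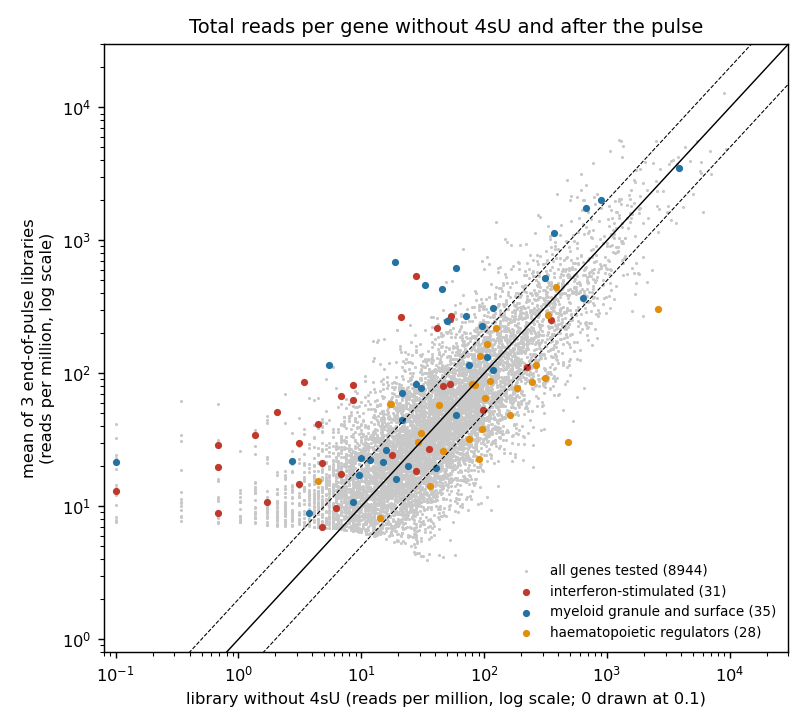
Level of each of the 8944 genes in the library without 4sU (x axis) and its mean level in the 3 end-of-pulse libraries (y axis), both in RPM on log scales. The solid line marks equal levels and the dashed lines 2-fold, and a level of 0 is drawn at 0.1. Interferon-stimulated genes (red, 31) and myeloid markers (blue, 35) lie mostly above the lines, and haematopoietic regulators (orange, 28) more often below.

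Genes of the inflammatory response were among those with the largest differences. CCL2, the chemokine that draws monocytes to inflamed tissue, was counted over a 3′ UTR segment that starts at position 32583847 of chromosome 17 (hg19, plus strand) and had 0 reads without 4sU and 265, 310 and 309 reads at 0, 20 and 40 min. IL1B, an inflammatory cytokine of activated monocytes, had 0 reads and then 191, 224 and 248. With the floor of 3 reads that a count of 0 allows in that library, the lowest end-of-pulse level was at least 29.6-fold higher for CCL2 and at least 21.3-fold higher for IL1B. ICAM1, the adhesion receptor for leukocyte integrins, had 2 reads without 4sU against 548, 513 and 519, a ratio of 85.1 with a 95% exact interval of 23.5 to 703 from the summed reads. For these 3 genes, selected for the size of their difference, the 3 pulse libraries all lay above the library without 4sU. CXCL10, a chemokine induced by interferon, had 0 reads and then 63, 83 and 68, at least 6.93-fold higher.

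Of the 26 genes tested in the list of inflammatory cytokines and NF-kB response, 15 were at least 2-fold higher and 0 lower, beside 17.1% and 14.2% of all genes, and the median log2 ratio was 1.58 beside 0.006 over all genes. By edgeR 19 were higher and 3 lower. TNFAIP3, which encodes the deubiquitinase A20, a feedback inhibitor of NF-kB, had 10 reads without 4sU and 810, 769 and 827 after the pulse. TNF itself went from 19 reads to 418, 557 and 525. The NF-kB subunits differed from each other: NFKB1 was called higher with a mean log2 ratio of 1.85 and NFKB2 with 3.57, whereas REL stood at 0.06, RELB at 0.12 and RELA at -0.41. TNFAIP3, TNF and these subunits were named after their values had been seen.

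Interferon-stimulated genes had the highest median of the lists with at least 5 genes tested. Of 31 tested, 21 (67.7%) were at least 2-fold higher and 0 lower, beside 17.1% and 14.2% of all genes. The median log2 ratio was 2.40. By edgeR 24 were higher and 5 lower. OAS1, which makes the activator of RNase L in virus-infected cells, had 2 reads without 4sU and 258, 269 and 254 after the pulse, a ratio of 42.1 (95% exact interval 11.6 to 348). With the distinct segments of OAS1 summed, which may share reads, its log2 ratio was 3.87 in place of 5.08. MX1, an antiviral GTPase, had 6 reads and then 439, 469 and 468, a mean log2 ratio of 4.51 with an SD of 0.06. IRF9, the DNA-binding subunit of the interferon-activated factor ISGF3, had 10 reads and then 716, 795 and 827. GBP2, an interferon-induced GTPase, had 0 reads and then 136, 115 and 100, at least 10.2-fold higher. All 4 genes were low in the library without 4sU, as the rule requires, and alike in the 3 others. STAT2, another subunit of ISGF3, had at most 1 read in each of the 4 libraries. ISG15 (-0.42), IFI16 (-0.59), ADAR (-0.46) and BST2 (-1.02) also had negative ratios without meeting the 2-fold rule in all 3 libraries, and these 4, like STAT2, were named after their values had been seen.

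The interferon-stimulated response element is the site through which ISGF3 acts, and its core was read off the promoters of these genes as a description. The list holds genes known to respond to interferon. The share of its members with the core therefore reflects how the list was chosen and not these libraries. The core, GAAA followed by any 2 bases and GAAA again, was searched on both strands in 300 bases of RefSeq sequence (GRCh38.p14) running from 250 before to 50 after the gene start. Of the 31 tested genes 22 matched a promoter, and 14 of these (63.6%) held the core, beside 204 of 7221 tested genes with a promoter (2.83%) and 996 of 27305 promoters (3.65%). It was present in 11 of 14 called higher and in 3 of 8 not called. Over all shifted genes the share was 3.99% of those higher (48 of 1203) and 2.53% of those lower (26 of 1027). A match is a description of these letters, and OAS1, IRF9 and XAF1 had none in this window. The core nearest to the gene start and wholly before it is shown in capitals for 5 of the genes called higher, with 10 bases on either side, 5′ to 3′ on the strand of the gene. TTTC, 2 bases and TTTC are the core read on the other strand.
IFIT1 (chr10:89392510-89392539, plus strand): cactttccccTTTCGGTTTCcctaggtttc
IFIT5 (chr10:89414513-89414542, plus strand): ttctattaagTTTCGGTTTCtgaagcttac
IFI44L (chr1:78620365-78620394, plus strand): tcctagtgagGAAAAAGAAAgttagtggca
IFITM3 (chr11:320876-320905, minus strand): aaactgttgaGAAACCGAAActactgggga
OAS3 (chr12:112938321-112938350, plus strand): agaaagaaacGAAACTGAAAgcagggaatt
These 5 genes had 9, 9, 4, 156 and 25 reads without 4sU. At 0 h they had 242, 119, 285, 2391 and 730 reads, in the same order.

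Many myeloid granule and surface genes were higher after the pulse. In bulk libraries more cells of a type and more RNA per cell cannot be told apart. Of the 35 myeloid granule and surface markers tested, 20 (57.1%) were at least 2-fold higher and 0 lower, beside 17.1% and 14.2% of all genes. The median log2 ratio was 1.17, with 28 ratios above 0 and 7 below. S100A8, a calcium-binding protein abundant in neutrophils and monocytes (3′ UTR segment at 153362508 on chromosome 1, hg19, minus strand), had 55 reads without 4sU and 6020, 5930 and 6563 after the pulse, which is 18.9 RPM against 691, 673 and 688. Its partner S100A9 had 172 reads and then 5374, 5614 and 5799. S100A12, of the same family, had 0 reads and then 178, 204 and 202, at least 19.9-fold higher. TYROBP, the adaptor of activating myeloid receptors, had 96 reads and then 4199, 3906 and 4396, a ratio of 14.0 (95% exact interval 11.5 to 17.3). In each of these 4 genes every pulse library lay above the library without 4sU, as the rule requires. LYZ, the lysozyme gene, had 133 reads and then 3689, 3809 and 4216. The neutrophil elastase gene ELANE had a mean log2 ratio of 1.60 and the azurocidin gene AZU1 1.40, while PRTN3 (0.73) and CTSG (0.31), which encode related serine proteases, did not pass the rule. CST3, PTPRC, TLR2, TLR4 and S100A6 had ratios below 0, so the list did not move as a block. LYZ, S100A9, the 4 protease genes and these 5 were named after their values had been seen.

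Of 33 lysosome genes tested, 8 (24.2%) were at least 2-fold higher and 2 (6.06%) lower, beside 17.1% and 14.2% of all genes, with a median log2 ratio of -0.01 that lay between -0.07 and -0.04 when 1 pulse library was left out. CTSH, a cysteine protease, had 37 reads without 4sU and 1158, 1156 and 1232 after the pulse, and CTSB had 376 and then 5166, 5212 and 5329. SQSTM1, the autophagy receptor p62, had 377 and then 5404, 5553 and 5832. CTSD, the aspartic protease of the same compartment, had a mean log2 ratio of -1.03 and CTSL of -1.64, both named after their values had been seen.

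A further list held metallothioneins, small proteins that bind zinc and copper, with the transcription factor gene MTF1 and the zinc exporter gene SLC30A1. Of its 8 genes tested, 6 (75.0%) were at least 2-fold higher and 0 lower, beside 17.1% and 14.2% of all genes, with a median log2 ratio of 1.15. The 6 were the metallothioneins MT1X, MT2A, MT1F and MT1H, and MTF1 and SLC30A1. MT1X had 82 reads without 4sU and 1447, 1421 and 1495 after the pulse, a mean log2 ratio of 2.51. MT2A had 481 and then 5204, 5521 and 5693, and MTF1, the zinc-sensing transcription factor of these genes, 110 and then 1152, 1100 and 1333. MT1G, at -0.42, was the member with a negative ratio. The coding and 3′ sequences of the MT1 genes are alike, so reads may be split among them. At 12 h of chase MT1X stood at 43.8 RPM, nearer to its 28.1 without 4sU than to its 161 after the pulse, and MT2A at 334, between 165 and 607.

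The metal response element, to which MTF1 binds, has the core TGCACNC or TGCGCNC. These were searched on both strands in the same promoters, where overlapping matches were each counted. Of 5 tested genes of the list with a promoter, 4 held at least 2 matches and 3 at least 3, beside 12.8% and 3.53% of the 7221 tested genes. MT1H and MT2A had 8 matches each, MT1X 4 and SLC30A1 2, while MTF1 itself had 0. All 5 genes were called higher, so there was no uncalled member to set beside them. Metallothionein genes are known targets of MTF1, so their matches reflect how the list was chosen and not these libraries. The match nearest to the gene start and wholly before it is in capitals, with 10 bases on either side.
MT1X (chr16:56682407-56682433, plus strand): gcggggcctcTGCGCCCggccctcttc
MT2A (chr16:56608520-56608546, plus strand): gcggggctttTGCACTCgtcccggctc
MT1H (chr16:56669751-56669777, plus strand): gcagggtctcTGCACCCggctccctcc
Such matches were no more frequent among all genes called higher, of which 12.8% held at least 2, than among all genes tested.

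Energy metabolism and redox genes included some of the most abundant shifted transcripts. PKM, which encodes pyruvate kinase, had 361 reads without 4sU and 12403, 12205 and 12658 after the pulse, or 124 against 1424, 1385 and 1326 RPM. LDHA, lactate dehydrogenase A, had 807 and then 14131, 13620 and 14187. GAPDH, from the same pathway, had 4449 and then 13716, 14397 and 15679, which in RPM is 1526 against 1575, 1633 and 1643. Of 27 glycolysis and hypoxia genes 6 (22.2%) were higher and 5 (18.5%) lower, beside 17.1% and 14.2% of all genes. Their median log2 ratio was -0.14, and -0.05 without the 0 h library. VEGFA, the angiogenic factor, had 9 reads and then 234, 293 and 286, and NDRG1, another hypoxia-responsive gene, 355 and then 328, 387 and 366, a mean log2 ratio of -1.61. Among 31 NRF2 and antioxidant genes 8 were higher (25.8%) and 5 lower (16.1%). FTL, the ferritin light chain, stood at 1289 RPM without 4sU and at 5581, 5651 and 5552 after the pulse, and SOD2, the mitochondrial superoxide dismutase, had a mean log2 ratio of 2.28.

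The cytoplasmic ribosomal protein genes did not shift alike. Of 78 tested, 26 (33.3%) were at least 2-fold higher and 2 (2.56%) lower, beside 17.1% and 14.2% of all genes. The median log2 ratio was 0.62. RPS6 had 1388 reads without 4sU and 24021, 25620 and 27855 after the pulse, a mean log2 ratio of 2.59 with an SD of 0.05. RPL14 had 1132 and then 19352, 19295 and 21324, and RPL26 had 2249 and then 32910, 32844 and 37490. In the other direction RPLP2 had 10674 and then 11968, 11743 and 13085, a mean log2 ratio of -1.43, and RPL5 12100 and then 15790, 15707 and 16388, at -1.23. From RPLP2 to RPS6 the log2 ratios of the segments used thus spanned 4.02 units, while another RPS6 segment had a mean of -0.86. RPLP2 and RPL5 were named after their values had been seen. The labelled share of these genes in the pulse libraries was low, with a median of 8.86%. Many ribosomal protein genes have processed pseudogenes, so the handling of multiply mapped reads, on which the labels say nothing, could split their reads. That part was not tested.

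Other rows of the same genes gave further values. Rows were taken as distinct when their counts differed, so overlapping rows can hold the same reads, and a sum can count these more than once. A second PKM row, starting at 72491446 beside 72491370 (hg19), had 145 reads without 4sU and 4855, 4804 and 4965 after the pulse. Its mean log2 ratio was 3.44 beside 3.47 for the main segment, and whether it shares reads with that segment was not tested. For RPL14 the second segment had a mean log2 ratio of 1.37, beside 2.51. For RPS6 a segment at another position of the gene, with 584 reads and then 1077, 837 and 1098, had a mean of -0.86, opposite to the 2.59 of the main one. With the distinct segments of a gene summed, the log2 ratio was 4.02 in place of 4.67 for FEZ1, 3.79 in place of 5.92 for FOSB and 3.10 in place of 3.88 for EEF1A1. A ratio in these libraries is therefore that of a segment, and it can differ within a gene. These genes were chosen after their values had been seen.

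Nuclear-encoded subunits of the respiratory chain resembled the ribosomal proteins in their counts. Of 76 tested, 26 (34.2%) were higher and 2 (2.63%) lower, beside 17.1% and 14.2% of all genes. The median log2 ratio was 0.62. ATP5PD, a subunit of ATP synthase, had 152 reads without 4sU and 1991, 2071 and 2311 after the pulse. UQCRC1, of complex III, had 212 and then 2760, 2768 and 2728, and NDUFB11, of complex I, 114 and then 1546, 1486 and 1452. All 3 were more than 4-fold higher on the summed reads. The 2 genes called lower were both of complex I, NDUFB8 at -1.11 and NDUFB7 at -1.05, named after their values had been seen.

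**Figure D3:**
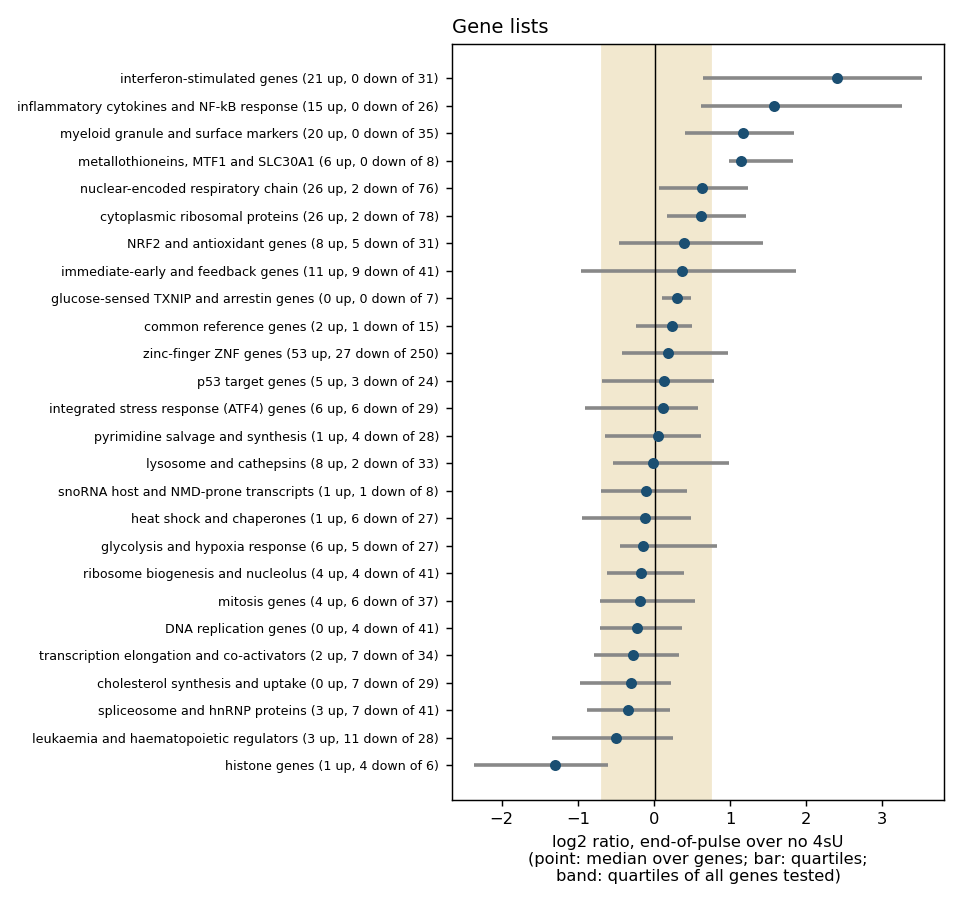
Log2 ratio of the end-of-pulse libraries (mean of 3) over the library without 4sU for each gene list with at least 5 genes tested. Points are medians over genes, bars the quartiles, and the band the quartiles of all 8944 genes with their median as a line, and the labels count members at least 2-fold higher and lower in all 3 libraries. Interferon-stimulated genes have the highest median (2.40) and histone genes the lowest (-1.30).

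Of 28 leukaemia and haematopoietic regulators tested, 11 (39.3%) were at least 2-fold lower and 3 (10.7%) higher, beside 14.2% and 17.1% of all genes, with a median log2 ratio of -0.50, and edgeR called 16 lower and 8 higher. GFI1, a transcriptional repressor of myeloid progenitors (3′ UTR segment at 92940319 on chromosome 1, hg19, minus strand), had 1415 reads without 4sU and 225, 273 and 327 after the pulse, which in RPM is 485 against 25.8, 31.0 and 34.3. It was the gene with the largest decrease by the naming rule, 15.9-fold (95% exact interval 14.6 to 17.4). CEBPA, a factor that directs granulocyte and monocyte differentiation (segment at 33790840 on chromosome 19, minus strand), had 7544 reads and then 2581, 2837 and 2754, or 2587 RPM against 296, 322 and 289. MYB, needed for progenitor self-renewal, had 915 and then 777, 798 and 903, and the anti-apoptotic gene BCL2 264 and then 227, 175 and 206. In all 4 genes the library without 4sU lay above every pulse library in RPM, as the rule requires. IRF8 (-1.52), LMO2 (-1.18), GATA2 (-1.36) and MEN1 (-1.74) were also lower, while SPI1, which encodes the monocytic factor PU.1, was higher at 1.75, as was KMT2A at 1.73. MYC was at 29.1 RPM without 4sU and 28.1, 32.4 and 30.0 after the pulse (edgeR adjusted p = 0.756), and HOXA9 had a mean log2 ratio of -0.05. Of these, IRF8, LMO2, GATA2, MEN1, SPI1, KMT2A and HOXA9 were named after their values had been seen. At 12 h of chase GFI1 stood at 102 RPM, CEBPA at 466 and MYB at 162, all between their end-of-pulse values and those without 4sU.

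Of 27 chaperone genes tested, 6 (22.2%) were at least 2-fold lower and 1 (3.7%) higher, beside 14.2% and 17.1% of all genes. The lower ones included the most abundant chaperones of the endoplasmic reticulum. HSPA5, the main chaperone of the endoplasmic reticulum, stood at 2308 RPM without 4sU and at 613, 614 and 579 after the pulse. PDIA4, a disulfide isomerase there, had 1441 reads and then 1079, 1071 and 1189, 4.01-fold lower, and HSP90B1 was 2.56-fold lower. HSPB1, a small heat shock protein of the cytosol, was the 1 higher gene, with 1853 reads and then 17925, 17786 and 18561. The heat-inducible HSPA1A (0.37) and HSPA1B (0.60), named after their values had been seen, did not pass the rule.

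Stress pathways with known target genes gave counts in both directions. Among 29 genes of the integrated stress response 6 were higher and 6 lower, 20.7% each beside 17.1% and 14.2% of all genes. The median log2 ratio was 0.12, and 0.19 without the 0 h library. SLC3A2, an amino acid transporter subunit, had a mean of 2.24 and PHGDH, of serine synthesis, 2.12, while TRIB3, a pseudokinase, had -2.26. Among 24 p53 targets 5 were higher (20.8%) and 3 lower (12.5%), near the shares of all genes. CDKN1A, the cell-cycle inhibitor p21, had 48 reads without 4sU and 721, 705 and 767 after the pulse, a ratio of 4.92 (95% exact interval 3.70 to 6.70), whereas BAX, a pro-apoptotic gene, had 202 and then 160, 177 and 169, 3.71-fold lower. Genes of pyrimidine salvage and of de novo synthesis were taken as 1 list, although 4sU enters the nucleotide pool through salvage. Of 28 tested, 1 (3.57%) was higher and 4 (14.3%) lower, beside 17.1% and 14.2% of all genes. The median log2 ratio of the list was 0.06, and it lay between 0.03 and 0.10 when 1 pulse library was left out. TYMP, thymidine phosphorylase, was the higher one, with 28 reads and then 506, 500 and 542, and UMPS, of de novo synthesis, had a mean log2 ratio of -1.13.

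Sterol and fatty acid synthesis had 0 of 29 genes higher and 7 (24.1%) lower, beside 17.1% and 14.2% of all genes. The median log2 ratio was -0.30. SREBF2, the transcription factor that drives cholesterol synthesis, stood at 114 RPM without 4sU and at 29.4, 32.3 and 26.2 after the pulse. SQLE, squalene epoxidase, had 162 reads and then 170, 171 and 174, a mean log2 ratio of -1.55, and SCD, the stearoyl-CoA desaturase, -1.49. HMGCS1, of the mevalonate pathway, had -0.86 and did not pass the rule.

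By the 2-fold rule, mitosis genes were called in both directions and DNA replication genes only in the lower one. Of 37 mitosis genes 4 (10.8%) were higher and 6 (16.2%) lower, beside 17.1% and 14.2% of all genes. Of 41 DNA replication genes 0 were higher and 4 (9.76%) lower. The median log2 ratios were -0.18 and -0.22. TOP2A, the topoisomerase of dividing cells, had 1880 reads without 4sU and 666, 689 and 737 after the pulse, 8.34-fold lower (95% exact interval 7.83 to 8.88), and it stood at 225 RPM at 12 h of chase beside 76.5 to 78.2 at the end of the pulse. PLK1, a mitotic kinase, went the other way with 187 reads and then 1558, 1739 and 1825, a mean log2 ratio of 1.56. CDC6, which loads the replicative helicase, had -1.52. Of 6 histone genes tested 4 were lower and 1 higher, and 2 of the lower ones, H1F0, a replacement linker histone, and H2AFJ, an H2A variant, are not replication-dependent. HIST1H1C had 227 reads without 4sU and then 105, 102 and 98, which is 77.9 against 12.1, 11.6 and 10.3 RPM. Most messages of replication-dependent histones lack a poly(A) tail, so 3′ libraries capture few of them, and near-identical copies share reads.

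Genes of RNA synthesis and processing were called lower about as often as all genes, of which 14.2% were lower and 17.1% higher. Of 41 spliceosome and hnRNP genes 7 were lower (17.1%) and 3 higher, with a median log2 ratio of -0.34 and 23 lower against 9 higher by edgeR. HNRNPF stood at 1065 RPM without 4sU and at 307, 316 and 314 after the pulse. Of 34 genes of transcription elongation and co-activators 7 were lower (20.6%) and 2 higher: SUPT16H, a subunit of the histone chaperone FACT, had a mean log2 ratio of -2.11, BRD3, a bromodomain protein, -1.73 and NELFB, of the pausing factor NELF, -1.69. In ribosome biogenesis 4 of 41 were higher and 4 lower, with UTP4 at 2.18 and UBTF, the RNA polymerase I factor, at -2.08. The zinc-finger ZNF genes, 250 tested, had 53 higher (21.2%) and 27 lower (10.8%), near the shares of all genes.

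Some immediate-early genes differed among the 3 pulse libraries, so their values are given apart. FOSB, a subunit of AP-1, had 0 reads without 4sU and 22, 85 and 426 at 0, 20 and 40 min. SOCS3, the feedback inhibitor of cytokine signalling, had 5 and then 103, 263 and 804, and SGK1, a kinase, 11 and then 386, 581 and 825. At 0 h the log2 ratios were 3.91 for FOSB, 2.66 for SOCS3 and 3.49 for SGK1. FOS, with 36 reads and then 90, 1408 and 3384, was not called, because its 0 h library did not reach 2-fold. It was named after its values had been seen. Of 41 genes in the list 11 (26.8%) were higher and 9 (22.0%) lower, beside 17.1% and 14.2% of all genes. BTG2, an antiproliferative gene, had 22 reads and then 595, 612 and 536, alike in the 3 libraries.

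Genes often taken as references differed among themselves. ACTB stood at 3226 RPM without 4sU and at 3884, 3759 and 3708 after the pulse, and ACTG1 had a mean log2 ratio of 0.07. PPIA, cyclophilin A, was at 784 against 2121, 2130 and 2128. Of 15 such genes 2 (13.3%) were higher and 1 (6.67%) lower, beside 17.1% and 14.2% of all genes. The median log2 ratio was 0.23. EEF1A1, the other higher one, had 12 reads and then 535, 579 and 592, and the many pseudogenes of this elongation factor make its counts uncertain. Among the 5 most abundant genes, CAP1 stood at 9018 against 12880, 12770 and 12810 RPM and RPL27A at 9283 against 4996, 4753 and 4832, so neither passed the rule.

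**Figure D4:**
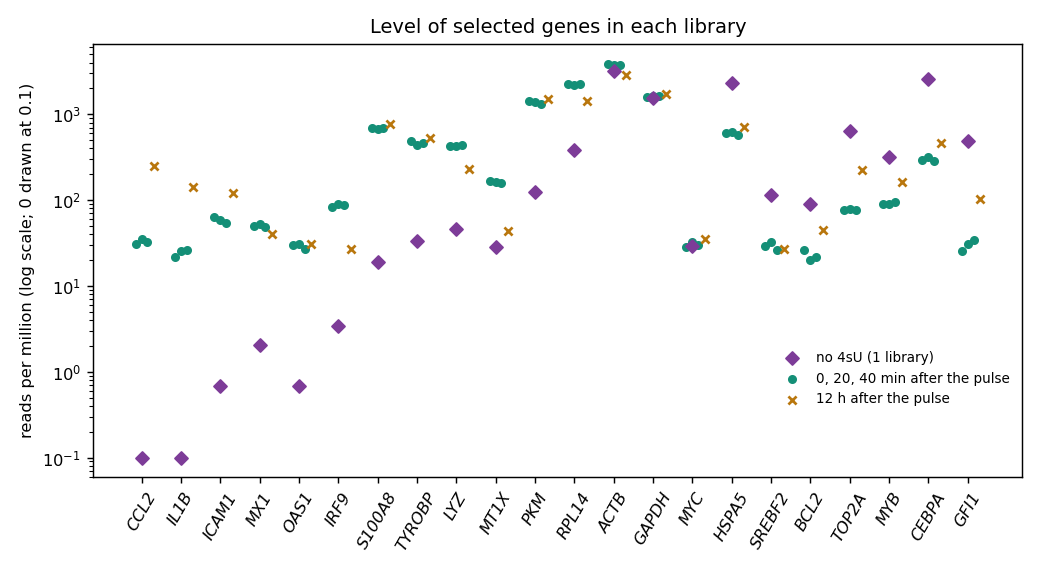
Level of 22 genes in RPM on a log scale: the library without 4sU (purple diamonds, 0 drawn at 0.1), the 3 libraries at 0, 20 and 40 min after the pulse (green points) and the 12 h library (orange crosses). CCL2 and IL1B lie at 0 reads without 4sU, ACTB, GAPDH and MYC overlap or nearly overlap, and HSPA5 to GFI1 lie lower after the pulse.

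Further genes that the naming rule selected fell outside the lists. C3, the central complement protein, had 0 reads without 4sU and 393, 338 and 384 after the pulse, at least 37.3-fold higher, the largest such bound among the named genes. CXCL14, a chemokine, had 1 read and then 521, 545 and 621, a ratio of 182 with a 95% exact interval of 32.6 to 7180. MAGEA4, a cancer-testis antigen on chromosome X, had 0 and then 201, 191 and 215. DCAF4L1 had 0 and then 190, 201 and 239, and reads of this gene can be shared with its relative DCAF4. SLC2A6, a hexose transporter, had 7 and then 668, 591 and 616, and FEZ1 had 5 and then 422, 415 and 459. On the lower side, HOMER3, a scaffold protein, had 1664 and then 579, 601 and 603, TMEM250 had 1548 and then 375, 395 and 411, and TMC6 had 724 and then 179, 169 and 184. BIK, a pro-apoptotic BH3-only gene, had 332 and then 76, 99 and 78. For each of these, selected for size, the 3 pulse libraries lay on the same side of the library without 4sU, as the rule requires. The SD of their log2 ratios ran from 0.02 for FEZ1 to 0.24 for BIK, beside a median of 0.083 over all genes.

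The labelled share of a gene after the pulse was compared with its difference, since labelled reads come from RNA made while 4sU was present. New RNA whose reads hold too few converted bases counts as unlabelled, and the 99th percentile of the labelled share was 73.1%. The median share was 40.7% in genes called higher, 42.7% in genes called lower and 43.8% over all genes tested. The frequency of higher calls was greatest at both ends: 30.0% of the 313 genes with under 10% labelled reads and 28.0% of the 193 genes with 70% or more, beside 13.9% to 23.1% between. Lower calls made up 10.9% and 5.18% at those ends. Both quantities use the pulse libraries, so no test was made. S100A8 had 4.94% labelled reads and 650 unlabelled RPM, beside 18.9 RPM in all without 4sU, and PKM had 11.1% labelled and 1226 unlabelled beside 124. The labelled share was 7.98% for C3 and 5.45% for TYROBP. The unlabelled reads of IRF9 were 26.4 of 86.3 RPM, beside 3.43 RPM in all without 4sU, and those of CCL2 were 11.9 of 32.7, beside 0 reads. Among the lower genes PLPPR3, with 1.03% labelled reads, had 728 reads without 4sU and 229, 291 and 258 after the pulse, and GFI1 had 61.7% labelled. As a description of genes already chosen on their total reads, 612 of the 1527 higher genes (40.1%) met the 2-fold rule on unlabelled reads alone.

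**Figure D5:**
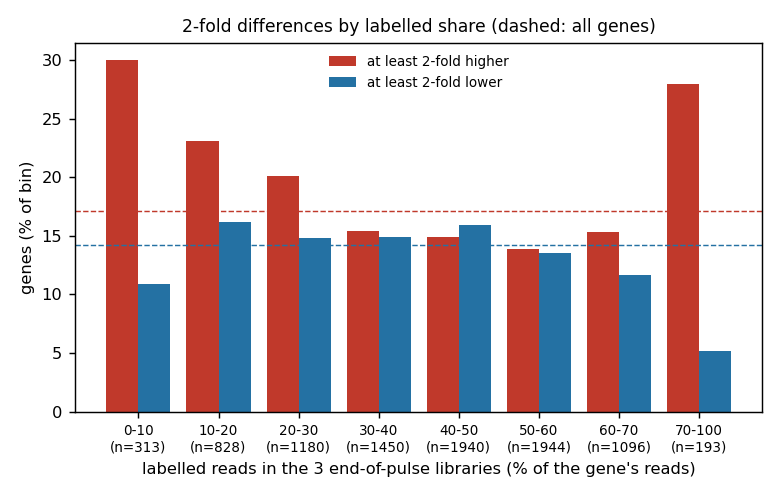
Percent of genes at least 2-fold higher (red) and lower (blue) after the pulse in bins of the labelled share of the gene's reads in the 3 end-of-pulse libraries, with the number of genes per bin under each. Dashed lines mark the shares over all genes, 17.1% and 14.2%. Higher calls are most frequent in the lowest bin (30.0%) and in the highest (28.0%).

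Base composition of the annotated transcript ends, which need not be the segments whose reads were counted, was nearly unrelated to the log2 ratio. The GC percentage of the last 250 bases of the transcript (GENCODE 29) had a Spearman correlation of -0.038 with the log2 ratio across 8944 genes, and the T percentage one of -0.046, although the labelled share followed both, at -0.59 and 0.59. The 10% of genes poorest in GC had a median log2 ratio of 0.06 and the richest 10% one of -0.13. By mean count, higher calls ranged from 15.2% to 22.5% and lower calls from 8.93% to 16.9%, with the most higher and fewest lower calls among the 1434 genes with 1000 reads or more. The median log2 ratio of those genes was 0.23, and it was -0.12 for genes with 100 to 200 reads. The mean count comes mostly from the 3 pulse libraries, since 1 RPM was worth 2.92 reads in the library without 4sU and 8.71 to 9.54 in the others, so genes that are higher after the pulse also have higher mean counts.

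The late chase libraries give the same comparison without recent 4sU in the medium, and share the library without 4sU with it. With the 8 h and 12 h libraries in place of the 3 end-of-pulse libraries, 1550 genes were at least 2-fold higher and 705 lower, against 1527 and 1268. S100A8 stood at 769 RPM at 12 h, PKM at 1514 and C3 at 64.2, beside 18.9 RPM, 124 RPM and 0 reads without 4sU. ICAM1 was at 122 and CCL2 at 253, above their end-of-pulse means of 58.5 and 32.7. IRF9 was at 26.9, below its 86.3, and still above the 3.43 without 4sU.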

How the data were processed

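Total and labelled reads per 3′ UTR segment were deposited by the authors as raw counts (QuantSeq 3′ FWD, builds hg19 and dm3, bcl2fastq 2.17.1.14 and Trim Galore 0.6.5 per the submitters' processing notes). Aligner, counter and conversion threshold: not given in the sources used here. Of 56570 transcripts 84.9% were named through GENCODE 29, and 5.65% of counts lay in unnamed rows and were left out. The segment with the largest total stood for its gene, and 85 genes with counts equal to another gene's were dropped. Log2 ratios used RPM over gene counts with a prior of 0.5. The 2-fold rule is not a test. edgeR 4.0.16 (TMM, quasi-likelihood, 2 residual degrees of freedom) and DESeq2 1.42.0 ran in R 4.3.3 on all 8944 genes. A run of edgeR on simulated counts gave every library the same spread, so it could not check what is assumed of the lone library. Intervals are exact binomial at 95% on summed reads and cover the counting error of reads only. Reads carry no molecular identifiers, so repeated copies of a molecule count as separate reads. Named were the 15 most shifted genes each way (mean of at least 100 reads), up to 4 shifted members per list, the 5 most abundant and 8 fixed genes, of which TXNIP had no row. A few genes are not reported here. The comparison and the 27 gene lists were chosen with earlier results of these data known. Alternatives covered scaling, filters, prior, fold, segments, reads used and each library left out.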

Additional observations from a re-analysis of the deposited data

How the results depend on the processing

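No paired analysis was possible because each condition has 1 library. Leaving out each end-of-pulse library in turn gave 1577 to 1586 genes at least 2-fold higher and 1325 to 1345 lower, and 3271 to 3296 and 3156 to 3184 by edgeR. The counts of the 2-fold rule stayed within 1.5 times the reported ones under TMM and DESeq2 size factors, all segment rows as library size, a minimum mean of 20 reads, a prior of 2 and summed segments. They moved further to 967 higher and 689 lower with a minimum mean of 200 reads (5481 genes tested), 2318 and 2151 with no filter (14733 tested), 2412 and 2231 at 1.5-fold, 711 and 437 at 3-fold, and 3053 and 3044 where the 95% exact interval excluded 1 in every library. With unlabelled reads scaled to their own total, which moved the median of all genes by -0.34, 2054 were lower, and CKS2 turned to -0.02. Added after seeing the data, unlabelled reads in RPM of all reads gave 612 higher and 3588 lower, fewer reads by construction, and the 8 h and 12 h libraries in place of the 3 gave 705 lower. By edgeR's glmTreat against 1.5-fold 1975 were higher and 1847 lower. The cause of the other moves was not tested. Depth limits genes with few reads without 4sU, where 3 reads are 1.03 RPM.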
